A study of Mus musculus with 36 samples.

Results

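Zfp266 knockout (KO) cells caught at day 7 of reprogramming were compared with Zfp266 KO induced pluripotent stem cells (iPSCs). Messenger RNA had been sequenced from 36 mouse libraries in 12 groups of 3, and this comparison takes 6 of them, the 3 KO day 7 libraries and the 3 KO iPSC libraries, chosen by the stage and genotype in their labels. The starting cells were mouse embryonic fibroblasts (MEFs) of the 129 strain that carry Cas9, a doxycycline-driven MKOS cassette (Myc, Klf4, Oct4 and Sox2, followed by the fluorescent protein mOrange) and a GFP reporter of Nanog. They were mixed with WT MEFs, received a lentivirus with a Zfp266 guide RNA (sgRNA) 24 h before induction, and were induced with 300 ng/ml doxycycline and 10 μg/ml vitamin C. Day 7 cells were sorted for mOrange, so each KO day 7 library holds mainly a population of edited cells that express the cassette, with no selection of successful edits. Sorting need not be complete, and some of the unedited WT MEFs may remain in these libraries. KO iPSCs were Nanog-GFP+ cells lifted at day 15, sorted 1 to a well and grown without doxycycline under 1 μg/ml puromycin, and the 3 libraries are labelled as clones 1, 2 and 3, with a KO genotype checked by the authors. Edited population against clone, doxycycline, vitamin C, puromycin, sorting and any library preparation batch therefore change together with the stage, and they cannot be told apart from it. WT day 7 and WT iPSC libraries, which received a non-targeting sgRNA and were otherwise handled in the same way, serve below as the background for the same step.

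Reprogramming of fibroblasts first shuts down mesenchymal genes and switches on epithelial ones, and later activates the cells' own pluripotency network, which then persists without the transgene. Zfp266 is a KRAB zinc finger protein, one of a large family of DNA-binding proteins that recruit the corepressor TRIM28 (KAP1) and, through it, histone H3K9 methylation. The comparison asks what remained to be changed between cells at day 7 and established iPSCs when this factor had been removed, gene group by gene group. Values are normalised read counts (reads divided by the size factor of the library) unless another scale is named, and they are not divided by gene length, so levels are compared between libraries and not between genes. A differentially expressed gene (DEG) had FDR < 0.05 and an absolute log2 fold change (log2FC) above 1. Positive log2FC means higher in KO iPSCs. In such bulk samples fewer cells that express a gene and less RNA per cell cannot be told apart. The iPSC replicates are separate clones, but the labels do not say that the day 7 replicates came from separate cultures, so their spread may be technical. The p-values rest on a spread between replicates that was estimated jointly over all 12 groups. KO day 7 libraries differed less among themselves than KO iPSC libraries did, and a joint estimate does not show this.

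The 6 libraries held 28457930 to 34461267 counts, and a count of 0 in a library leaves room for up to 3 reads, which is 2.60 to 3.03 normalised read counts. Both labels were checked against marker genes. The Nanog reporter carries GFP and puromycin resistance, so iPSCs were selected on Nanog, 1 of the 8 pluripotent markers. For that gene the check was partly fixed by the design. The summed level of 8 pluripotent stem cell markers was 24147 to 31937 at day 7 and 109333 to 124700 in iPSCs, against 130476 to 132882 in KO embryonic stem cells (ESCs), and all 8 were higher in iPSCs. For 8 fibroblast markers the sums were 22798, 13004 and 7984 in KO day 7 replicates 1, 2 and 3, which averages 3.36% of the KO MEF level, and 110 to 202 in iPSCs. Among the KO MEFs used as reference, replicate 3 stood apart, with 546147 against 376185 and 378897 in replicates 1 and 2. For 7 neural markers it had 3504 against 10227 and 10440. Each KO iPSC library and a day 7 library stood apart for some genes, as given next and, for iPSC replicate 3, with the epithelial genes.

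KO iPSC replicate 2 was higher across chromosome 8. Its median chromosome 8 gene lay 0.41 on the log2 scale above the average of all iPSC and ESC libraries, WT iPSC replicate 1 lay at 0.46, and the other iPSC and ESC libraries lay between -0.10 and -0.05. On the other chromosomes the highest median was 0.15, for chromosome X in the same library, and KO iPSC replicate 1 lay at 0.10 on chromosome 12. Of 646 chromosome 8 genes with a mean above 100, 575 were higher in that library than in the mean of the other KO iPSC libraries. On this chromosome 194 of 1058 tested genes were higher and 172 lower in iPSCs, with a median log2FC of 0.15, against 159 and 188 with a median of 0.00 without replicate 2. KO iPSC replicate 1 had more transcript of primitive endoderm markers, the genes of the extraembryonic lineage that segregates next to the epiblast, with a summed level of 12710 over 8 markers against 8695 and 3151 in replicates 2 and 3 and 2594 to 4823 in WT iPSCs. Sox17, Sox7 and Dab2, chosen after their values were seen, were at 64.9, 83.9 and 649 there and at no more than 11.1, 6.06 and 69.7 in the other KO iPSC libraries. Over these 8 markers 2 were called higher and 3 lower, and none higher and 4 lower without replicate 1 (1 higher without day 7 replicate 3). KO day 7 replicate 1 had the highest level of 20 of 27 fibroblast matrix genes among the day 7 libraries. Summed levels of the other marker lists ran at day 7 and in iPSCs from 1058 to 1238 and 2705 to 3955 for haematopoietic cells (6 markers, 1 higher and 2 lower), 3304 to 3410 and 1068 to 1878 for endothelium (8, 3 and 2), 9422 to 11001 and 1055 to 2438 for neural cells (7, 2 and 5), 138 to 256 and 954 to 1926 for muscle (5, 3 and 0) and 1374 to 1874 and 497 to 1682 for trophoblast (6, 1 and 2). Leaving out KO day 7 replicate 2 or 3 or iPSC replicate 3 left 1 lower endothelial marker, and leaving out iPSC replicate 2 left 1 higher neural marker. Over all tested genes 38.8% were called, 19% higher and 19.8% lower, so counts in such small marker lists say little. The part of these libraries and cell types in the results was not tested.

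**Figure D1:**
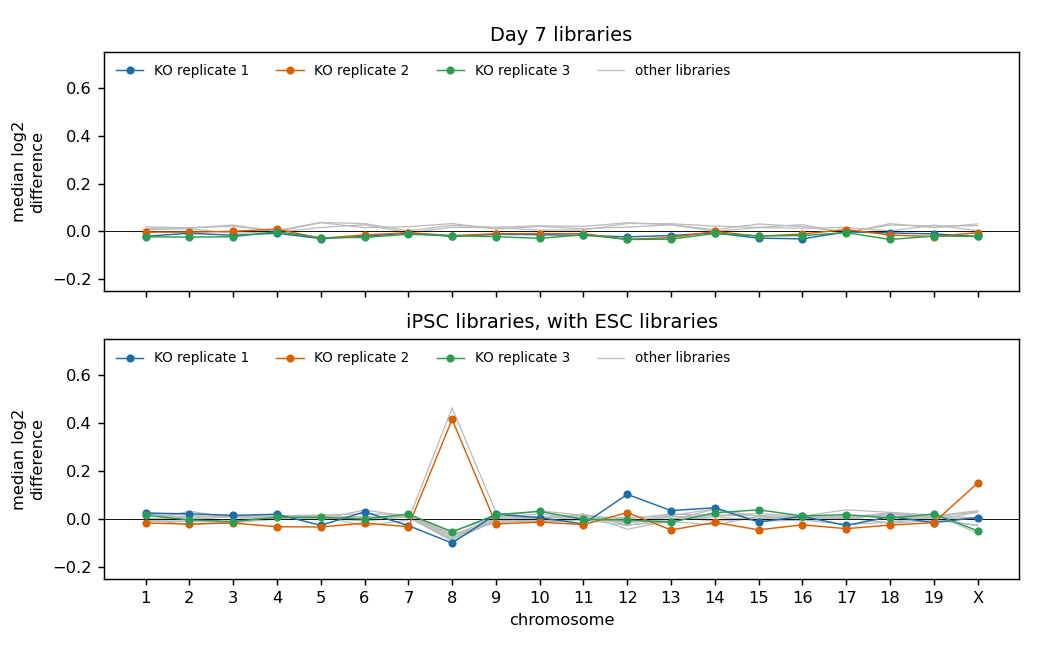
Median log2 difference of expressed genes on each chromosome (x axis) between a library and the mean over the libraries of its panel (y axis, log2 scale), for day 7 libraries above and iPSC and ESC libraries below. The KO replicates are coloured and other libraries grey. Chromosome 8 of KO iPSC replicate 2 stands at 0.41, with WT iPSC replicate 1 as the grey line beside it, while every chromosome of the day 7 libraries lies between -0.03 and 0.04.

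The targeted gene itself was measured in every library. Zfp266 (chr9:20495068-20521417, minus strand, GRCm38) had 1552, 1557 and 1501 normalised read counts in the KO day 7 libraries and 1954, 1892 and 2212 in the KO iPSC libraries (log2FC 0.39, FDR 5.7e-07), so all 3 iPSC libraries lay above all day 7 libraries without reaching the fold threshold. WT cells went from 1468 ± 58.1 to 2647 ± 151 (mean ± SD, n = 3). Edits made by Cas9 need not change the number of reads from a gene, and these counts do not check the knockout.

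Counts of the 4 cassette factors add transgene and endogenous transcripts. Pou5f1, which encodes Oct4, had 39968, 44743 and 46890.1 at day 7 under doxycycline and 37832, 34921 and 30729 in iPSCs without it (log2FC -0.35). Sox2 had 9972, 9792 and 12034 at day 7 and 12948, 12521 and 15067 in iPSCs (log2FC 0.35). The total thus stayed within the fold threshold for both, whereas the other 2 factors fell. Klf4 went from 12592, 12357 and 16717 to 3379, 3379 and 2765 (log2FC -2.13, FDR 1.7e-30). Myc went from 10525, 10488 and 14139.5 to 975, 805 and 798 (log2FC -3.77, FDR 3.7e-84). Their day 7 and iPSC libraries did not overlap.

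Across the transcriptome, 8317 of 21436 tested genes (38.8%) were DEGs, 4064 (19%) higher and 4253 (19.8%) lower in KO iPSCs, and the median log2FC of all tested genes was 0.04. FDR < 0.05 alone held for 68.9%. The 3 libraries of a stage lay wholly above or below those of the other for 15077 genes (70.3%), so a lack of overlap is a weak criterion here and the counts below are of DEGs. Of the 4064 higher genes, 2531 (62.3%) were ESC-associated, meaning DEGs with more transcript in WT ESCs than in the WT MEFs, against 26.0% of all tested genes, and 523 (12.9%) were MEF-associated. For the 4253 lower genes 2796 (65.7%) were MEF-associated, 367 (8.63%) were ESC-associated and 1090 (25.6%) were neither. ESC- and MEF-associated genes were 11867 of the genes tested (55.4%). On an axis running from 0 at the WT MEF mean to 100 at the WT ESC mean over these genes, KO day 7 libraries lay at 58.5 ± 1.51 and KO iPSCs at 98 ± 1.46 (mean ± SD, n = 3), a shift of 39.6 (exact permutation test, two-sided, p = 0.1, the smallest p that 3 against 3 allows). The position of KO ESCs was 100.1 ± 0.266. A share of the lower genes had been raised after the MEF stage. For 1413 of them (33.2%), the KO day 7 libraries all lay above the KO MEF libraries with a more than 2-fold higher mean, which held for 20.7% of all tested genes, and 752 of these 1413 (53.2%) were neither MEF- nor ESC-associated.

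**Figure D2:**
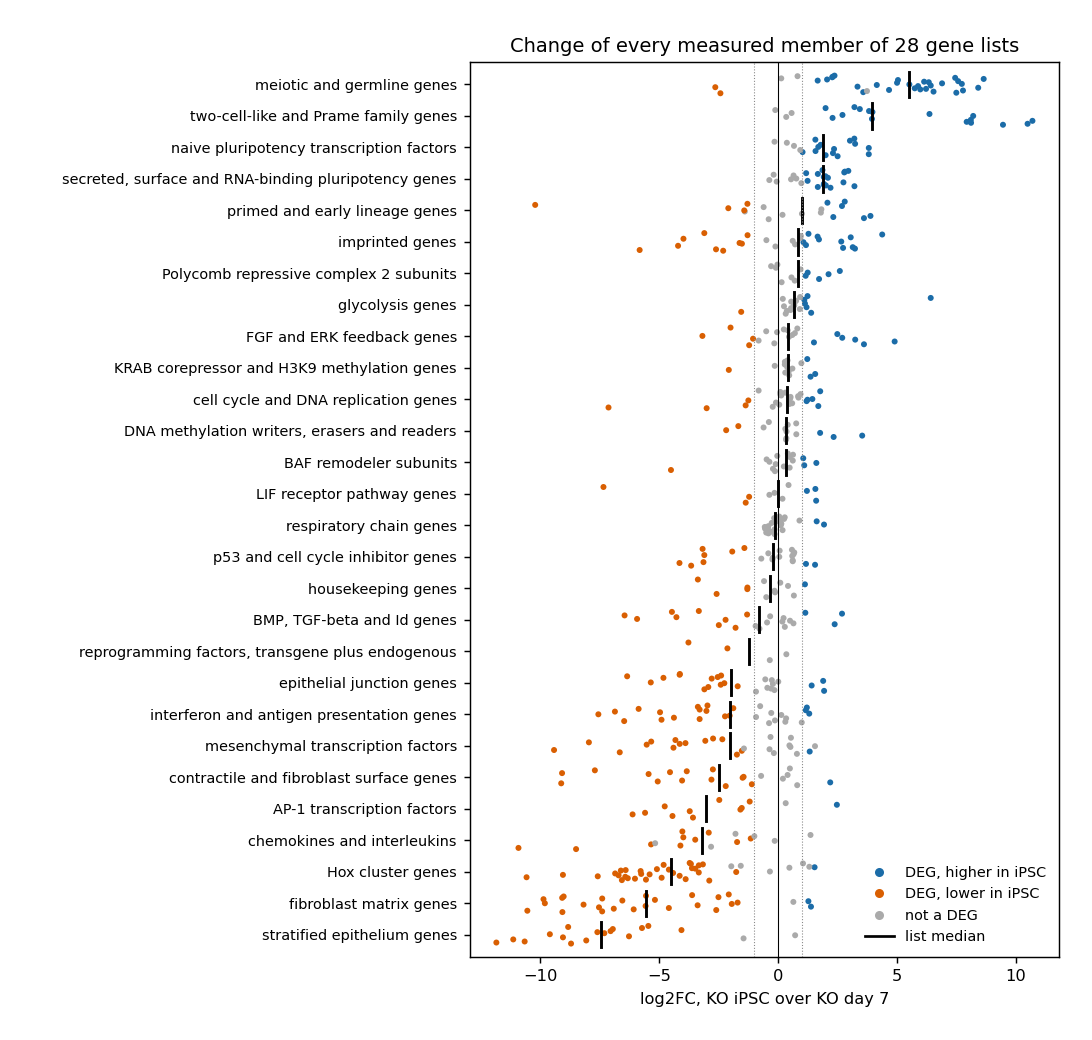
Change of every tested member of 28 gene lists between KO day 7 and KO iPSCs, as log2FC (x axis) with 1 line of points per list (y axis), ordered by the list median (black bar). Blue points are DEGs higher in iPSCs, orange points DEGs lower in iPSCs and grey points genes that did not pass. Germline genes lie furthest to the right with a median of 5.53 and stratified epithelium genes furthest to the left with a median of -7.46.

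Most pluripotency genes were higher in KO iPSCs than at day 7. Among 18 naive pluripotency transcription factors 14 were higher and none lower, with a median log2FC of 1.90. Among 24 secreted, surface and RNA-binding pluripotency genes 17 were higher and none lower, also with a median of 1.90. Nr0b1 (Dax1), an orphan nuclear receptor that acts with Nanog and Oct4, had 265, 314 and 212 at day 7 and 3853, 3366 and 3949.8 in iPSCs (log2FC 3.82, SE 0.18, FDR 9.0e-94), among the steepest changes of these lists. Klf2, a naive Krüppel-like factor on chromosome 8, had 522, 494 and 379 at day 7 and 4379, 8787 and 6521 in iPSCs (log2FC 3.82, and 3.55 without iPSC replicate 2, its highest library). Dppa4, a chromatin factor of early embryos, had 408, 571 and 374 at day 7 and 4372, 4309 and 3887 in iPSCs (log2FC 3.22, FDR 3.0e-78). In these 3 genes every day 7 library was far below every iPSC library.

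Core factors that were high at day 7 changed by smaller factors. Nanog, the gene carrying the GFP reporter, had 5.26 ± 3.38 in KO MEFs (mean ± SD, n = 3), 1173, 1412 and 1103 at day 7 and 7067, 7142 and 6757 in iPSCs (log2FC 2.51, SE 0.14, FDR 1.2e-67). Sorting and puromycin both selected iPSCs on Nanog, so its rise was partly fixed by the design. Esrrb, another core naive factor, had 4058, 4823 and 3826 at day 7 and 15827, 18583 and 16549 in iPSCs (log2FC 2.0). Zfp42 (Rex1), a classical marker of naive ESCs on chromosome 8, had 3759, 4252 and 3420.5 at day 7 and 16516, 23306 and 18770.4 in iPSCs (log2FC 2.36, and 2.21 without iPSC replicate 2). In the second list Fgf4, the growth factor that drives ERK signalling in the epiblast, had 1886, 2160.4 and 1698 at day 7 and 8337, 6691 and 6846 in iPSCs (log2FC 1.93). Utf1, a chromatin protein of pluripotent cells, had 1126, 1353 and 1053 at day 7 and 5015, 3510.3 and 4888 in iPSCs (log2FC 1.92). Lin28a, the RNA-binding protein that blocks let-7 maturation, had 3748, 4394 and 4358 at day 7 and 8369, 9522 and 11712 in iPSCs (log2FC 1.24). For each of these genes the groups did not overlap. Dppa5a belongs to a family with near-identical copies, so that its count is uncertain, and was at 7716, 11687 and 9023 at day 7 and 38844, 29196 and 46694 in iPSCs (log2FC 2.01, FDR 3.8e-04).

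Some pluripotency genes were already close to the iPSC level at day 7. Sall4, a zinc finger factor that partners Oct4 and Nanog, had 4671, 5554 and 4414 at day 7 and 6839, 8245 and 8233 in iPSCs (log2FC 0.67, below the fold threshold). Zfp296, a zinc finger factor of ESCs, had 1277, 1374 and 1264 at day 7 and 1170.0, 1202 and 1161 in iPSCs (log2FC -0.15). Lin28b, the paralogue of Lin28a, had 1426, 1171 and 1223 at day 7 and 1089, 1039 and 833 in iPSCs (log2FC -0.37). Alpl, which encodes alkaline phosphatase, had 2617, 3478 and 4028 at day 7 and 2754, 2313 and 3843 in iPSCs (log2FC -0.18), with overlapping libraries. None of these 4 genes passed the thresholds.

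**Figure D3:**
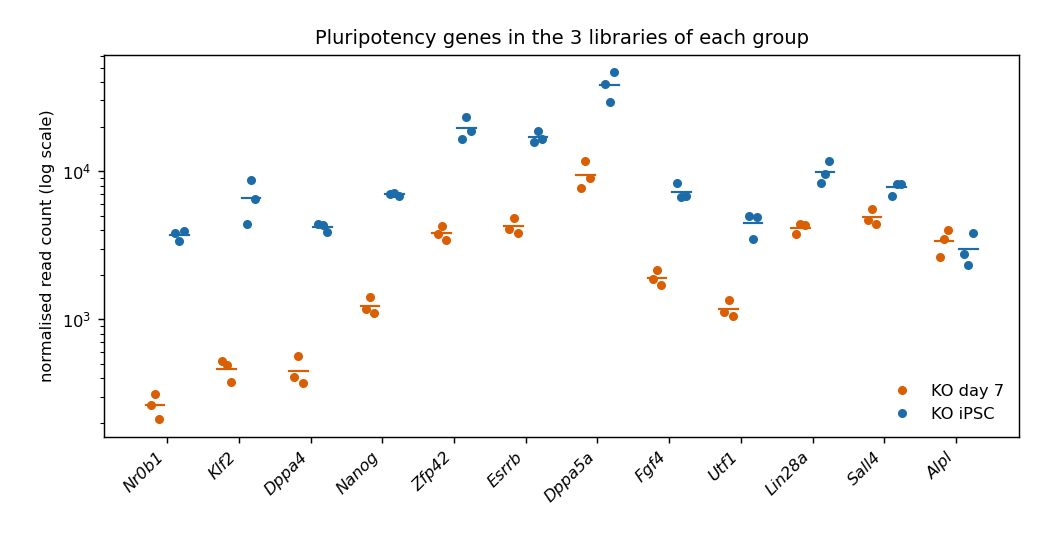
Normalised read counts (y axis, log scale) of 12 pluripotency genes in the 3 KO day 7 libraries (orange) and the 3 KO iPSC libraries (blue), with horizontal bars at the group means. Nr0b1 rises from 212 to 314 up to 3366 to 3949.8, whereas the Alpl libraries overlap.

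Genes of primed pluripotency and the first lineages moved both ways, 6 of 17 measured being higher and 4 lower (median log2FC 1.01, 20 listed). Of all tested genes 19% were higher and 19.8% lower. Otx2 and Pou3f1 (Oct6), factors of the formative and primed epiblast, were higher. Otx2 had 426, 484 and 283 at day 7 and 3037, 1450.5 and 1495 in iPSCs (log2FC 2.33, FDR 2.9e-07). Pou3f1 had 13.1, 20.1 and 8.17 at day 7 and 347, 112 and 156 in iPSCs (log2FC 3.89), with iPSC replicate 1 the highest for both. Fgf5, the classical primed marker, rose at low counts, from 3.01, 4.38 and 3.63 at day 7 to 75.9, 39.9 and 20.2 in iPSCs (log2FC 3.62). Endoderm and trophoblast regulators were among the lower genes. Gata4 had 513, 543 and 554 at day 7 and 255, 78.1 and 45.5 in iPSCs (log2FC -2.09). Gata6 had 108, 129.6 and 114 at day 7 and 204, 12.2 and 16.2 in iPSCs, and its log2FC of -0.61 did not pass, while without iPSC replicate 1 it was -3.07 and passed. Elf5, a trophoblast and epithelial ETS factor, had 269, 181 and 179 at day 7 and no read in any KO iPSC library, which is at least 217-fold lower against a floor of 3 reads over the group. T (Brachyury) had 5.02, 19.3 and 29.0 at day 7 and 11, 15.6 and 14.1 in iPSCs, low and overlapping.

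Fibroblast genes, most of which had lost the bulk of their MEF level by day 7, were lower still in KO iPSCs. Carried-over WT MEFs could hold part of the day 7 level of fibroblast genes here and below, which was not tested. Of 27 matrix genes 24 were lower and 2 higher (1 higher without iPSC replicate 3, median log2FC -5.57), and in all 24 the day 7 libraries already lay wholly below the KO MEF libraries. Col1a1, a chain of type I collagen, had 157966 ± 21754 in KO MEFs (mean ± SD, n = 3), 7911, 4837 and 2771 at day 7 and 3.99, 7.81 and 17.2 in iPSCs (log2FC -9.07, SE 0.49, FDR 5.3e-76). Col3a1, the type III collagen chain, had 5649, 2785 and 1374 at day 7 and 0.998, 5.21 and 0 in iPSCs (log2FC -10.55). Both collagens differed more than 2-fold among the day 7 libraries, replicate 1 being highest, and even the lowest day 7 library was far above the iPSC libraries. Fbln2 and Fbn1, glycoproteins of elastic fibres, were steadier at day 7. Fbln2 had 4257, 3971 and 4609.7 at day 7 and 27.0, 58.2 and 50.5 in iPSCs (log2FC -6.55, SE 0.15). Fbn1 had 4599, 3955 and 5433 at day 7 and 121, 111 and 61.6 in iPSCs (log2FC -5.57). Sparc kept a higher level in iPSCs, with 12296, 12604 and 10104 at day 7 and 5242, 2496 and 1346 in iPSCs (log2FC -1.95). Fn1 (fibronectin), which ESCs also express, was one of the 2 genes of the list that rose, from 19086, 17050.3 and 14906 to 46966, 44265 and 42239 (log2FC 1.39, FDR 1.8e-09).

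Of 24 mesenchymal transcription factors 14 were lower and 1 was higher (2 higher without iPSC replicate 1, median log2FC -2.04). Prrx1, a limb mesenchyme homeobox factor, had 519, 431 and 362 at day 7 and 0.998, 0.868 and 0 in iPSCs, a day 7 to iPSC ratio of 683 with a 95% counting interval of 189 to 5646. Tbx15 had 754, 797 and 863 at day 7 and 19, 19 and 14.1 in iPSCs (log2FC -5.53, FDR 8.8e-86). Runx1 had 571, 527 and 561 at day 7 and 93.8, 12.2 and 6.06 in iPSCs (log2FC -3.89, and -5.89 without iPSC replicate 1). Snai1, a repressor of E-cadherin, had 253, 219.7 and 205 at day 7 and 92.8, 67.7 and 43.4 in iPSCs (log2FC -1.73). The day 7 libraries were above the iPSC libraries for all 4. Zeb1, another such repressor, was the factor that rose, from 229.9, 217 and 141 to 599, 582 and 297 (log2FC 1.33), and Twist1 was low in both groups with 64.3, 70.0 and 45.4 at day 7 and 51.9, 65.1 and 41.4 in iPSCs. Among 20 contractile and fibroblast surface genes 14 were lower and 1 higher (2 higher without iPSC replicate 3, median log2FC -2.47). Cd44, a hyaluronan receptor, had 2971, 2789 and 3302 at day 7 and 6.99, 4.34 and 5.05 in iPSCs (log2FC -9.12, FDR 4.9e-102). Thy1 had 310.3, 226 and 115 at day 7 and 57.9, 34.7 and 49.5 in iPSCs (log2FC -2.20). The smooth muscle actin gene Acta2 had 511, 499.8 and 411 at day 7 and 5.99, 1.74 and 35.4 in iPSCs (log2FC -5.06). S100a6, a calcium-binding protein of fibroblasts, had 9879, 9866 and 8637 at day 7 and 254, 247 and 151 in iPSCs (log2FC -5.45). Icam1 was the gene that rose, from 466, 439 and 551 to 2067, 2183 and 2423 (log2FC 2.20), and Vim (vimentin) was at 3144, 3222 and 3337 at day 7 and 5197, 5912 and 1714 in iPSCs with overlapping groups. The AP-1 factors, which keep somatic enhancers open, were mostly lower, 10 of 12 (median log2FC -3.03), with 1 higher. Fosl1 had 377, 488 and 457 at day 7 and 3.99, 7.81 and 7.07 in iPSCs (log2FC -6.12). Fosl2 had 1382, 1691 and 1777 at day 7 and 31.9, 13.9 and 56.6 in iPSCs (log2FC -5.59). Jun had 1803, 1629.9 and 1735 at day 7 and 93.8, 102 and 199 in iPSCs (log2FC -3.71). The stress-induced Atf3 had 489, 401 and 522 at day 7 and 21.0, 11.3 and 20.2 in iPSCs (log2FC -4.77). The gene that rose was Batf, from 1.00, 3.5 and 0 to 2.0, 10.4 and 13.1 (log2FC 2.48, FDR 0.0038, and 4.16 without day 7 replicate 2), at very low counts.

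**Figure D4:**
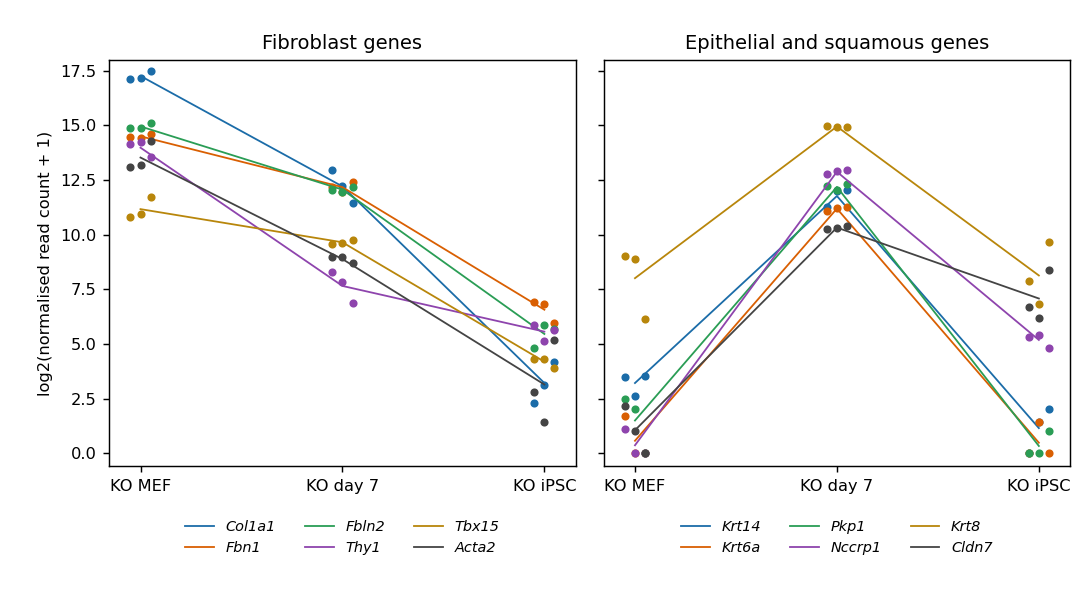
Log2 of normalised read count plus 1 (y axis) of 6 fibroblast genes (left) and 6 epithelial and squamous genes (right) in KO MEFs, KO day 7 cells and KO iPSCs (x axis). Points are the 3 libraries of each group and lines join the means. The fibroblast genes fall at each step, and the epithelial genes peak at day 7.

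Stratified epithelium genes, which form the skin barrier and squamous linings, fell steeply. Of 18 measured stratified epithelium genes 16 were lower and none higher, with the lowest median of the 28 lists (-7.46), and in 12 of the 16 the day 7 libraries lay above the KO MEF libraries by more than 2-fold. Krt14, a keratin of basal epidermis, had 2463, 4145 and 4164 at day 7 and 0, 1.74 and 3.03 in iPSCs (log2FC -11.14, FDR 9.9e-49), and 8.68 ± 3.11 in KO MEFs. Krt6a, a keratin of activated epidermis, had 2169.9, 2412 and 2454 at day 7 and 0, 1.74 and 0 in iPSCs, a day 7 to iPSC ratio of 3696 (95% counting interval 1023 to 30527). Krt5, the partner of Krt14, had 153, 123 and 155 at day 7 and 0.998, 0 and 0 in iPSCs. Neighbouring keratin genes are similar in sequence and reads may be split between them, but the day 7 libraries were above the iPSC libraries in each. Pkp1, a desmosome plaque protein, was the gene of the largest fold among genes with a mean of at least 500, with 4777, 4182 and 5061 at day 7 and 0, 0 and 1.01 in iPSCs and a day 7 to iPSC ratio of 14660.2 (95% counting interval 2631 to 579084). Sfn (stratifin) had 5804, 6877 and 6741 at day 7 and 267, 307 and 589 in iPSCs (log2FC -4.06). Perp, a desmosome protein that is also a p53 target, had 9722, 9613 and 10452 at day 7 and 269.5, 225 and 184 in iPSCs (log2FC -5.46). Krt10, the keratin of differentiated epidermis, was low in both groups (30.1, 33.3 and 28.1 at day 7 and 38.9, 59.9 and 51.5 in iPSCs).

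Epithelial junction genes, which pluripotent cells share in part, split, with 13 of 24 lower, 3 higher and a median log2FC of -1.98. Cdh1 (E-cadherin, chromosome 8) had 18296, 17976 and 17042 at day 7 and 6788, 10332 and 10899 in iPSCs (log2FC -0.93). Epcam had 4096, 3919 and 3572 at day 7 and 2765, 2271 and 5400.5 in iPSCs (log2FC -0.15). Neither was a DEG. For Cdh1 the change passed without iPSC replicate 2 (-1.01) or replicate 3 (-1.05). Krt8, a keratin of simple epithelia, fell from 31766, 31472 and 31569.6 to 235, 115 and 815 (log2FC -6.35). Dsp (desmoplakin) fell from 29069, 26139 and 33080.2 to 794, 826 and 1502 (log2FC -4.82). Cldn7, a tight junction protein, went from 1238, 1282 and 1328 to 103, 71.2 and 330.3 (log2FC -2.93). Cdh3 (P-cadherin, chromosome 8) rose from 326, 348 and 292 to 862, 1333 and 1512 (log2FC 1.94, and 1.88 without iPSC replicate 2). The epithelial regulator Grhl2 went from 232, 297 and 301 to 791, 533 and 1775 (log2FC 1.90, and 1.26 without iPSC replicate 3). KO iPSC replicate 3 had the highest level of 23 of the 24 genes among the iPSC libraries. Without it 16 genes were lower and 2 higher.

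Genes were also ranked by test statistic among DEGs with an absolute log2FC above 2, a ranking that favours genes of low spread. The 8 leading lower genes were Tagln2, Zdhhc23, Fbln2, Nccrp1, Misp, Pdia5, Tob1 and Dlgap1. Tagln2, an actin-binding transgelin, had 14044, 13779 and 14538 at day 7 and 1866, 1918 and 1739.5 in iPSCs (log2FC -2.94, SE 0.05). Nccrp1, an F-box protein of squamous epithelia, had 7088, 7615 and 7907 at day 7 and 38.9, 41.7 and 27.3 in iPSCs (log2FC -7.70). Zdhhc23, a palmitoyltransferase, had 2906, 2814 and 2953 at day 7 and 41.9, 57.3 and 82.8 in iPSCs (log2FC -5.58). Misp, a protein that orients the mitotic spindle, had 2541, 2747 and 2859 at day 7 and 57.9, 27.8 and 50.5 in iPSCs (log2FC -5.92). The last 3 genes were near 0 in KO MEFs, at 0.383 ± 0.663, 4.99 ± 0.361 and 8.11 ± 5.64 (mean ± SD, n = 3), so their day 7 level exceeded both ends of the process. Pdia5, Tob1 and Dlgap1 had log2FC of -2.99, -2.35 and -5.44. The lower genes of largest fold also included Ly6c1, with 1348, 1231 and 1090.2 at day 7 and 0, 0.868 and 0 in iPSCs, and Krt6b, with 990.1, 1043 and 1048 at day 7 and 0, 1.74 and 0 in iPSCs.

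The 8 leading higher genes by the same ranking were Gab1, Zfp987, Trap1a, Apoe, Zfp980, Mcf2, Pald1 and Gprasp1. Gab1, a docking protein of receptor tyrosine kinase signalling on chromosome 8, had 389, 449.9 and 383 at day 7 and 6484, 7664 and 6157 in iPSCs (log2FC 4.05, SE 0.12, and 3.96 without iPSC replicate 2). Apoe, the apolipoprotein of lipid transport, had 866, 941 and 693 at day 7 and 33187, 40881 and 39357 in iPSCs (log2FC 5.50). Trap1a, an X-linked antigen gene, had 75.3, 106 and 87.1 at day 7 and 4092, 3687 and 2729 in iPSCs (log2FC 5.29). Mcf2, a gene on the X chromosome, had 33.1, 39.4 and 22.7 at day 7 and 2355, 1753 and 2382 in iPSCs (log2FC 6.09). Zfp987 and Zfp980 are zinc finger genes of the same KRAB class as Zfp266, in a gene cluster on chromosome 4 whose members can share reads. Zfp987 had 149, 250.4 and 132 at day 7 and 11200.1, 7928 and 9815 in iPSCs (log2FC 5.77). Zfp980 had 311, 464 and 314 at day 7 and 29306, 16412 and 21069 in iPSCs (log2FC 5.94). Over all 393 tested genes whose symbol begins with Zfp and a number, a set chosen after these values were seen, 129 were higher and 26 lower (median log2FC 0.50). Over all tested genes 19% were higher and 19.8% lower. The symbol does not tell whether a gene is of the KRAB class. Pald1 and Gprasp1 had log2FC of 3.13 and 2.75. By fold among genes with a mean of at least 500 the leaders were Ina, Tex14, Hsf2bp, Gm5514 and Ldhb. Ina, a neuronal intermediate filament, had 3.01, 7.88 and 7.26 at day 7 and 1117, 1545 and 1823 in iPSCs (log2FC 7.92). Ldhb, a lactate dehydrogenase subunit, had 91.4, 115 and 66.3 at day 7 and 5340.0, 3713 and 14354 in iPSCs (log2FC 6.42). The processed pseudogene Gm5514 had 16.1, 15.8 and 17.2 at day 7 and 1119, 745 and 2966 in iPSCs (log2FC 6.62). Both genes were highest in iPSC replicate 3. Reads of Gm5514 may come from its parent gene, so that count is uncertain.

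The list with the highest median change was that of germline genes. Meiotic and germline genes encode the synaptonemal complex, meiotic recombination and the piRNA pathway, and most are silenced in somatic cells by methylation of CpG-rich promoters. Of 33 measured genes (35 listed) 28 were higher in KO iPSCs and 2 lower, with a median log2FC of 5.53 against 0.04 over all genes. Hormad1, a protein of meiotic chromosome axes (chr3:95559677-95587671, GRCm38), had 5.02, 7.0 and 0 at day 7 and 1101, 631 and 829 in iPSCs (log2FC 7.73, SE 0.52, FDR 2.6e-48). Tex14, which forms the intercellular bridges of germ cells, had 4.02, 6.13 and 5.45 at day 7 and 1374, 1130.2 and 954 in iPSCs (log2FC 7.78). Sycp3, a synaptonemal complex protein, had 17.1, 16.6 and 12.7 at day 7 and 969, 712 and 1792 in iPSCs (log2FC 6.23). For these 3 genes no day 7 library exceeded 17.1 and every iPSC library was above 600. Dazl, a germ cell RNA-binding protein, had 4.02, 0.875 and 1.82 at day 7 and 265, 185 and 158 in iPSCs (log2FC 6.54). Hsf2bp, a partner of BRCA2 in meiosis that was not on the list and was named for its fold, had 8.03, 13.1 and 10.9 at day 7 and 2801, 2226 and 2094 in iPSCs (log2FC 7.78). Fkbp6, needed for chromosome synapsis, had 0, 0 and 0.908 at day 7 and 152, 96.4 and 154 in iPSCs, an iPSC to day 7 ratio of 428 with a 95% counting interval of 76.3 to 16934. KO iPSC replicate 1 was highest for 20 of the 33 genes and replicate 3 for the other 13. In this list 2 genes fell. Piwil2, a Piwi protein of the piRNA pathway, fell from 2810.5, 2721 and 1801 to 489, 442 and 435 (log2FC -2.42, FDR 1.8e-23). Tdrd1, its Tudor domain partner, went from 115, 123 and 143 to 17, 13.9 and 31.3 (log2FC -2.64). Stra8, the gatekeeper of meiosis, had 55.2, 65.7 and 90.8 at day 7 and 116, 101 and 158 in iPSCs and did not pass.

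Promoter sequence was examined because so many members of this list moved together. RefSeq promoter windows on GRCm38.p6, from 250 bases before to 50 after the start site, matched 30 of the 33 genes. The letters CACGTG, an E-box bound by MYC and by the MGA and MAX repressor, lay in a window of 14 of the 30 genes and of 8.09% of all 27025 genes in the table. The letters GCGGGAA on either strand, an element bound by E2F6, lay in 7 of the 30 and in 5.29% of all genes. These motifs can share at most 1 base. Of 26 matched genes that were higher 15 held at least 1 of them and 5 both. Tdrd1, the 1 matched gene that was lower, held CACGTG, and the 3 matched genes that did not pass held neither motif. The median number of CpG in a window was 20, against 8 over all genes. Both motifs contain a CpG, and the shares over all genes were not matched for the number of CpG. TATAAA lay in 5 of the 30 and in 15.7% of all genes. For naive pluripotency transcription factors 13 of 18 genes matched, of which 2 held CACGTG, none GCGGGAA and 3 TATAAA. A match is a description of the sequence. Other lists held the letters too, CACGTG in 5 of 16 p53 and cell cycle inhibitor genes and GCGGGAA in 4 of 14 KRAB corepressor and H3K9 methylation genes and 3 of 15 BAF subunits. Windows are shown 5′ to 3′ on the transcribed strand with matches in capitals, for 3 germline genes chosen because they hold a match, for Dazl as a germline gene that rose and holds none, and for Nr0b1 as a pluripotency gene that rose.
Hormad1 promoter, chr3:95559427-95559726, plus strand: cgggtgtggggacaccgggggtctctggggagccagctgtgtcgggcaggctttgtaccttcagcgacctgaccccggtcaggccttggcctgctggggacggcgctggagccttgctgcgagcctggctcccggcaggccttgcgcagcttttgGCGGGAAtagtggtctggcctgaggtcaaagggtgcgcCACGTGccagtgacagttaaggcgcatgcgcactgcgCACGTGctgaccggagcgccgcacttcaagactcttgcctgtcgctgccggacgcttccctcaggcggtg
Sycp3 promoter, chr10:88459337-88459636, plus strand: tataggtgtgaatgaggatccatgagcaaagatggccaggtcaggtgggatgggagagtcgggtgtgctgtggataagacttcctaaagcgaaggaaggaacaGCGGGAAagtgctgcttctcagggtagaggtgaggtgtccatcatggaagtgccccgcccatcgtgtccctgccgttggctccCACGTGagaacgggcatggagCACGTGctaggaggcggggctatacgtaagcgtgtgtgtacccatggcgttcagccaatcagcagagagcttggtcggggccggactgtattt
Tex14 promoter, chr11:87404815-87405114, plus strand: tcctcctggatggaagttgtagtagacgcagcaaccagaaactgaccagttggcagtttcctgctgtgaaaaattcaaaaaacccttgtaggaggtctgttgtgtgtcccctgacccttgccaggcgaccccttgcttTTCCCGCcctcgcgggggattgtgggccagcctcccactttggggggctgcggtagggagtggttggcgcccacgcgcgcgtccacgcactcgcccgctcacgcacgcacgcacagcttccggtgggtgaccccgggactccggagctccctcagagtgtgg
Dazl promoter, chr17:50293571-50293870, minus strand: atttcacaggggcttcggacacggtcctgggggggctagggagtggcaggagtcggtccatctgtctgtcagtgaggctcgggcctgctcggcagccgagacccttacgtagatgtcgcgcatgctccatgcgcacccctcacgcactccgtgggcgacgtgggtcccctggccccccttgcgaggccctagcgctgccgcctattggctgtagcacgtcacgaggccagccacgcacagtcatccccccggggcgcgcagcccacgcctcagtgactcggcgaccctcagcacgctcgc
Nr0b1 promoter, chrX:86191525-86191824, plus strand: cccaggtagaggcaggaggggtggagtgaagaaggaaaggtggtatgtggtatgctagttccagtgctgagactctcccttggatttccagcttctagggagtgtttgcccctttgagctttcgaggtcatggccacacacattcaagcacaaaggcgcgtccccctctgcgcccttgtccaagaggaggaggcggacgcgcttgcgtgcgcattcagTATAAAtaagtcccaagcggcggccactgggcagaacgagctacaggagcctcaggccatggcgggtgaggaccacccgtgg
In Hormad1 the GCGGGAA match began 95 bases before the start site and the CACGTG matches at 57 and 20 bases before it, among 24 CpG. Sycp3 held GCGGGAA at 147 and CACGTG at 64 and 43 bases before the start, among 15 CpG. Tex14 held GCGGGAA on the opposite strand, 112 bases before the start, among 20 CpG, and no CACGTG. Dazl held none of the 3 motifs, among 28 CpG. Nr0b1 held TATAAA 32 bases before the start and neither of the other motifs, among 14 CpG.

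Genes of the 2C-like state, a rare state of ESC cultures with transcripts of the early embryo, rose as well. With Prame family genes, 16 of 19 measured genes (21 listed) were higher and none lower (median log2FC 3.95). Zscan4c had 0, 2.63 and 7.26 at day 7 and 711, 1276 and 783 in iPSCs (log2FC 8.12). Zscan4e had 0, 0 and 0.908 at day 7 and 443, 750.0 and 471 in iPSCs, an iPSC to day 7 ratio of 1828 with a 95% counting interval of 328 to 72255. Duxf3 (Dux), the activator of this state, had no read in any KO day 7 library and 29.9, 77.3 and 44.4 in iPSCs, at least 56.0-fold higher. KO iPSC replicate 2 was highest for 16 of the 19 genes. Zscan4, Prame and Dux genes are families of near-identical copies, and the split of reads within them is uncertain. Zfp352 (7.03, 11.4 and 9.08 at day 7 and 13, 13.9 and 8.08 in iPSCs) and Pramef8 (827, 907 and 822 at day 7 and 717, 657 and 986 in iPSCs) did not pass.

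Of 14 DNA methylation writers, erasers and readers 3 were higher and 2 lower (median log2FC 0.35), a share near the 38.8% of all tested genes. Dnmt3l, the cofactor of de novo methylation, had 1201, 1186 and 713 at day 7 and 15193, 12430.0 and 8466 in iPSCs (log2FC 3.54, FDR 1.4e-14). Dnmt3b, a de novo methyltransferase, had 1289, 1865 and 1343 at day 7 and 9836, 5317 and 7617 in iPSCs (log2FC 2.34). Tet1, a 5-methylcytosine oxidase, had 5901, 5330.1 and 4923 at day 7 and 16879, 18362 and 19905 in iPSCs (log2FC 1.77). Another oxidase, Tet3, went the other way, from 1844, 1297 and 1575 to 372, 374 and 292 (log2FC -2.18). The methyl-CpG reader Mbd2 also fell, from 1149.7, 1168 and 1198 to 371, 337 and 399 (log2FC -1.67). The maintenance enzyme Dnmt1 was at 11364, 11644 and 10665 at day 7 and 13692, 14669.5 and 14200.3 in iPSCs and was no DEG. Among 12 subunits of Polycomb repressive complex 2 (PRC2), which methylates H3K27, 5 were higher and none lower (median log2FC 0.82), also near that share in all. These included Mtf2 (2923, 3215 and 2891 at day 7 and 12862, 12493 and 14061 in iPSCs, log2FC 2.13), Phf19 (63.3, 89.3 and 63.5 at day 7 and 493, 344 and 476 in iPSCs, log2FC 2.60), Eed (log2FC 1.73) and Jarid2 (log2FC 1.16), whereas the catalytic Ezh2 had a log2FC of 0.70 and Aebp2 one of -0.29.

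The corepressor machinery that Zfp266 and other KRAB zinc finger proteins use was measured as a list of 14 genes with H3K9 methylation enzymes. Of these 3 were higher and 1 lower (median log2FC 0.43), a share below the 38.8% of all tested genes. Trim28 had 18199.5, 19677 and 17004 at day 7 and 44880.4, 48677 and 48156 in iPSCs (log2FC 1.37, SE 0.06, FDR 1.4e-102). Cbx1 (HP1β), a reader of H3K9 methylation, had 3210.1, 3546 and 2903 at day 7 and 9202, 8662 and 10703 in iPSCs (log2FC 1.56). Zfp57, the KRAB protein that guards imprints, had 3256, 3739 and 3435 at day 7 and 9744, 9117 and 5629 in iPSCs (log2FC 1.23). All iPSC libraries lay above all day 7 libraries for these 3 genes. The H3K9 methyltransferase Suv39h1 fell from 1422, 1425 and 1614 to 383, 432 and 244 (log2FC -2.07), and Setdb1, the methyltransferase that Trim28 recruits, was within the fold threshold (log2FC 0.47). Of 16 measured subunits of the BAF remodeler (17 listed) 3 were higher and 1 lower (median log2FC 0.33), also below the share of all tested genes. Actl6a, part of the ESC form of the complex, had a log2FC of 1.06, Smarcd1 one of 1.10 and Smarcd3 one of 1.61 at low counts (38.2, 19.3 and 30.9 at day 7 and 77.9, 123 and 66.7 in iPSCs). The alternative ATPase Smarca2 (BRM) fell from 1156, 953 and 901 to 84.9, 32.1 and 16.2 (log2FC -4.50), while the ATPase Smarca4 (BRG1) was at 8373, 8652 and 8617 at day 7 and 7681, 7836 and 7934 in iPSCs (log2FC -0.13).

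Of 38 measured Hox genes (39 listed), which pattern the body axis and mark the positional origin of fibroblasts, 31 were lower and 1 higher (median log2FC -4.50). For 25 of the 31 the day 7 libraries already lay below KO MEFs. Hoxa9 had 399, 459 and 717 at day 7 and 0.998, 0 and 0 in iPSCs, a day 7 to iPSC ratio of 1660.2 with a 95% counting interval of 298 to 65611. Hoxa10 had 268, 319 and 399 at day 7 and 8.98, 2.60 and 0 in iPSCs (log2FC -6.43). Hoxb4 had 165, 143 and 138 at day 7 and 4.99, 2.60 and 3.03 in iPSCs (log2FC -5.40). Hoxd13 had 225, 218 and 258 at day 7 and 18, 26.0 and 8.08 in iPSCs (log2FC -3.72). The gene that rose was Hoxc13, from 15.1, 39.4 and 30.0 to 73.9, 101 and 71.7 (log2FC 1.54). Imprinted genes, expressed from a single parental allele, moved both ways, 11 of 26 higher and 9 lower (median log2FC 0.83). The shares of all tested genes were 19% and 19.8%. Meg3, the maternally expressed noncoding RNA of the Dlk1 and Dio3 region, had 613, 432 and 684 at day 7 and 6735, 5888 and 3680.1 in iPSCs (log2FC 3.24). Zdbf2 had 520.1, 659 and 642 at day 7 and 5419, 5357 and 4415 in iPSCs (log2FC 3.06). Magel2 had 3.01, 0 and 0 at day 7 and 29.0, 7.81 and 22.2 in iPSCs, an iPSC to day 7 ratio of 20.6 with a 95% counting interval of 6.72 to 103. The opposite partner of Meg3, Rtl1, fell from 72.3, 139 and 165 to 3.99, 2.60 and 0 (log2FC -5.82). Grb10, a growth-restraining adaptor, fell from 7271, 7679.6 and 8113 to 310.5, 523 and 629 (log2FC -3.98). The growth factor Igf2 went from 277, 143 and 172 to 9.98, 1.74 and 21.2 (log2FC -4.21). H19, the noncoding neighbour of Igf2, varied widely within both groups (2714, 919 and 279 at day 7 and 905, 307 and 2412 in iPSCs), and its log2FC of -0.11 did not pass.

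Signalling genes changed member by member, and their counts stand beside 19% higher and 19.8% lower over all tested genes. In the LIF receptor pathway, which sustains naive self-renewal through Stat3, 3 of 10 genes were higher and 3 lower (median log2FC 0.02). Lifr rose from 1092, 955 and 928 to 3468, 3196 and 2380.0 (log2FC 1.6). Osmr, the related oncostatin M receptor of mesenchymal cells, fell from 384, 373 and 486 to 3.99, 1.74 and 2.02 (log2FC -7.35). Lif and Jak1 were lower (log2FC -1.36 and -1.22), and Stat3 and its target Socs3 were within the threshold (log2FC -0.36 and -0.15). Of 20 FGF and ERK feedback genes 6 were higher and 4 lower (median log2FC 0.43), and 2 were lower without day 7 replicate 2 or without iPSC replicate 3. Fgf17 had 0, 2.63 and 9.99 at day 7 and 57.9, 121 and 207 in iPSCs (log2FC 4.91). Fgfr2 had 40.2, 37.6 and 29.0 at day 7 and 287, 270.0 and 458 in iPSCs (log2FC 3.25). The inhibitor Spry1 had 101, 111 and 113 at day 7 and 528, 477 and 833 in iPSCs (log2FC 2.49). The phosphatase gene Dusp5 and the immediate early gene Egr1 were lower (log2FC -3.18 and -2.0), and Dusp6 did not pass (log2FC 0.60). In 21 BMP, TGF-beta and Id genes 3 were higher and 9 lower (median log2FC -0.78). Nodal rose from 209.9, 267 and 248 to 1711, 1424 and 1556 (log2FC 2.69, FDR 1.7e-70). Bmp4 went from 223, 352 and 222 to 1769, 1744 and 648 (log2FC 2.38). The receptor Tgfbr2 fell from 1010.1, 879.7 and 803 to 70.9, 50.3 and 17.2 (log2FC -4.28). The activin subunit Inhba went from 92.4, 128 and 116 to 0, 0 and 4.04 (log2FC -6.46). The BMP target Id2 went from 1091, 1002 and 1016 to 226, 363 and 310.1 (log2FC -1.79). Id3 was within the threshold (log2FC 0.29).

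Immune genes were mostly lower in KO iPSCs. Of 27 measured interferon and antigen presentation genes (29 listed) 15 were lower and 3 higher (median log2FC -2.03). B2m, the light chain of MHC class I, had 3412, 3219 and 3681 at day 7 and 299, 434 and 261 in iPSCs (log2FC -3.37). The class I heavy chain gene H2-D1 had 3555, 3266 and 3602 at day 7 and 568, 453 and 309 in iPSCs (log2FC -2.97). The RNA sensors went opposite ways. Ifih1 (MDA5) had 139.6, 112 and 109 at day 7 and 0.998, 0.868 and 0 in iPSCs, a day 7 to iPSC ratio of 188 with a 95% counting interval of 51.6 to 1556, whereas Ddx58 (RIG-I) rose from 621, 753 and 539 to 1818, 1800.3 and 1136 (log2FC 1.31). Irf7 had 38.2, 28 and 25.4 at day 7 and 0, 0 and 1.01 in iPSCs. Of 16 measured chemokines and interleukins (20 listed) 10 were lower and none higher (median log2FC -3.20). Ccl7 had 344, 341 and 339 and Ccl2 73.3, 56.0 and 61.7 at day 7, and neither had a read in KO iPSCs, which is at least 357-fold and 66.3-fold lower. The chemokine Cxcl16 fell from 613, 682 and 807 to 59.9, 52.9 and 75.8 (log2FC -3.48). The macrophage growth factor Csf1 went from 168, 123 and 147 to 5.99, 4.34 and 17.2 (log2FC -4.03). Il15, at a few reads in both groups, did not pass.

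Of 21 p53 and cell cycle inhibitor genes 7 were lower and 2 higher (median log2FC -0.22), a share near the 38.8% of all tested genes. Cdkn1a (p21) had 11227, 10666 and 11974 at day 7 and 956, 991 and 739 in iPSCs (log2FC -3.66, SE 0.14, FDR 2.7e-144). Cdkn2a, which encodes p16 and p19ARF, had 1471, 1296 and 1276 at day 7 and 74.9, 92.9 and 59.6 in iPSCs (log2FC -4.15). Btg2, an antiproliferative p53 target, had 4375, 4573 and 4415 at day 7 and 556, 531 and 393 in iPSCs (log2FC -3.17). All day 7 libraries lay above all iPSC libraries in these 3 genes. Cdkn1b (p27) rose from 657, 682 and 525 to 2079.5, 1885 and 1521 (log2FC 1.56), and Trp53 and Mdm2 were within the threshold (log2FC 0.62 and -0.24). Among 26 cell cycle and DNA replication genes 5 were higher and 4 lower (median log2FC 0.38), again near that share. The D cyclins fell, Ccnd2 from 6212, 5023 and 5109.9 to 64.9, 36.5 and 15.2 (log2FC -7.13). Ccnd1 went from 10340.3, 9006 and 9262 to 729, 1205 and 1634 (log2FC -3.00). Ccne1 (cyclin E1) rose from 896, 1183 and 963 to 3221, 3279 and 3352 (log2FC 1.70). E2f1 went from 472, 488 and 422 to 1376, 1536 and 1818 (log2FC 1.78). The proliferation marker Mki67 was at 8953, 8326 and 8614 at day 7 and 8915, 9834 and 9052 in iPSCs (log2FC 0.10).

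Of 20 measured glycolysis genes (21 listed) 6 were higher and 1 lower (median log2FC 0.69), a share near the 38.8% of all tested genes. The glucose transporter Slc2a3 and the enzyme Pkm were higher (log2FC 1.39 and 1.11), and Hk1 (hexokinase 1) was lower (log2FC -1.55). Ldha was at 29383, 30518 and 31674 at day 7 and 37185, 34652 and 33443 in iPSCs (log2FC 0.20), in contrast to Ldhb above. Of 23 respiratory chain genes 2 were higher and none lower (median log2FC -0.14), 1 of them Cox4i2 at low counts (6.02, 6.13 and 6.35 at day 7 and 29.0, 21.7 and 20.2 in iPSCs). Uqcrc2, a subunit of complex III, had a log2FC of -0.56. Of 12 housekeeping genes, listed as a control, 1 was higher and 4 lower (median log2FC -0.32), among them Pgk1 (log2FC 1.13) and B2m as given above.

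The same step in WT cells gave 9646 DEGs (45%), 4280 higher (20%) and 5366 lower (25%) in iPSCs, and 73.5% of genes had FDR < 0.05. On the MEF-to-ESC axis it ran from 49.1 ± 0.597 to 97.8 ± 1.82, a shift of 48.7 against 39.6 in KO cells, and the difference between the shifts was not tested. The difference between the KO and the WT change was tested gene by gene as an interaction, and passed for 1958 of 20604 tested genes (9.5%), 1334 positive (6.47%) and 624 negative (3.03%), with 22.9% at FDR < 0.05 alone. A positive difference means a KO change that is the more positive of both, which for a gene that fell means that it fell less. WT day 7 replicate 1 differed from replicates 2 and 3 by a chi-square per gene of 44.0 and 42.3, against 6.02 between replicates 2 and 3. Rank correlations of these pairs were 0.9936, 0.9926 and 0.9949. Its gene with most reads was CT010467.1, at 1.80%, whereas Eef1a1 led in replicates 2 and 3. Without this library there were 9397 WT DEGs and 1770 interaction calls. Pluripotency lists were on the negative side. All passing members, 14 of 18 naive factors and 11 of 24 secreted, surface and RNA-binding genes, had a negative difference, and the list medians of log2FC were 1.90 and 1.90 in KO against 3.06 and 2.56 in WT. Dppa4 went from 53.7 ± 22.4 to 4822 ± 546 in WT cells (mean ± SD, n = 3) and from 451 ± 105 to 4189 ± 263 in KO cells (difference -3.27, SE 0.26, FDR 2.0e-31). Nr0b1 went from 85.9 ± 26.9 to 4978 ± 755 in WT and from 264 ± 51.4 to 3723 ± 313 in KO cells (difference -2.04). The iPSC means lay close together and the day 7 means apart in both genes. Dnmt3l (difference -3.87), Tet1 (-2.36) and Dppa5a (-3.07) followed this pattern.

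Fibroblast matrix genes were on the positive side, with 12 of 27 passing, all positive, and medians of -5.57 in KO against -7.70 in WT. Fbn1 went from 14100.2 ± 1555 to 85.8 ± 33.0 in WT and from 4662 ± 741 to 97.8 ± 31.7 in KO cells (difference 1.79, FDR 4.4e-08). Col1a2 had the most positive difference of the named matrix genes, 4.62 (2.68 without KO iPSC replicate 3), and there the KO iPSC libraries spread from 4.34 to 58.6. Mesenchymal transcription factors had 4 positive and no negative differences of 24, Hox genes 6 and none of 38. Germline genes had 6 positive and 2 negative of 33 (median log2FC 5.53 in KO, 4.34 in WT), and 2C-like and Prame family genes 3 and 1 of 19 (3.95 and 3.15). FGF and ERK feedback genes had 1 positive and 6 negative of 20, and stratified epithelium genes none of 18. These counts stand beside 6.47% positive and 3.03% negative over all tested genes. By test statistic, the leading positive genes were Smpd1, Morc4, Os9, Evl and Ttc7, and the leading negative ones Dppa4, Enox1, Gm34425, Aldh2 and Hmces. Smpd1, the acid sphingomyelinase, went from 1792 ± 103 to 109.7 ± 17.7 in WT and from 666 ± 74.1 to 139 ± 7.94 in KO cells (difference 1.76, FDR 1.2e-19). Enox1 went from 117 ± 30.2 to 3959 ± 1168 in WT and from 987 ± 226 to 2866 ± 316 in KO cells (difference -3.54, FDR 7.5e-27). KO day 7 thus lay between WT day 7 and iPSCs for both of them.

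**Figure D5:**
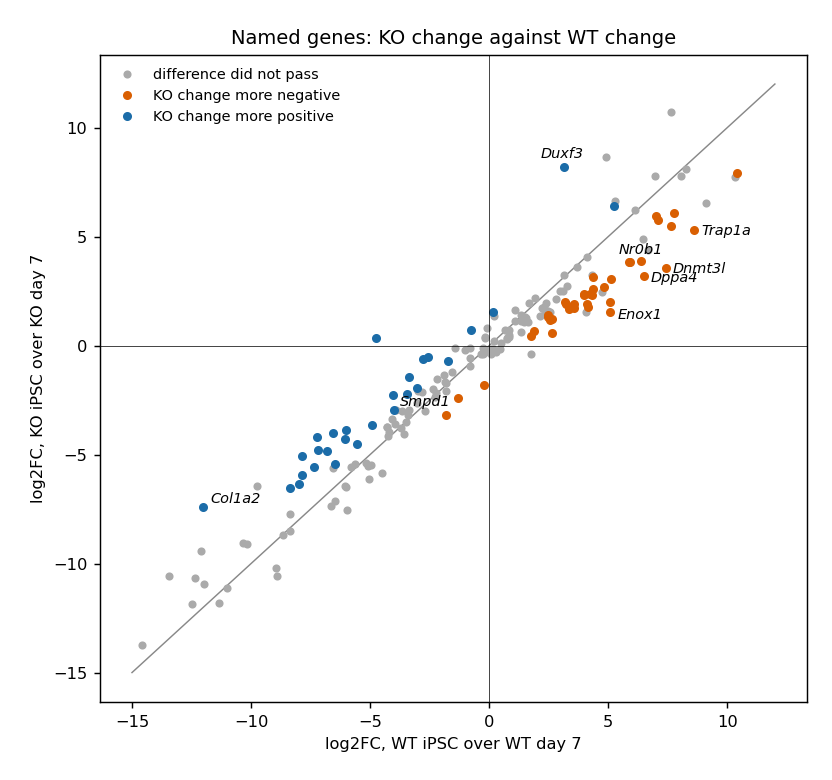
log2FC of iPSCs over day 7 in WT cells (x axis) and in KO cells (y axis) for the named genes, with the line of equal change. Blue and orange points passed the test of the difference, in the positive and the negative direction, and grey points did not. Dppa4 and Nr0b1 lie below the line and Col1a2 above it, and Gm34425, which had no read in the KO iPSC libraries, is not drawn.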

How the data were processed

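mRNA from 36 mouse libraries was sequenced with a stranded kit. Per the paper's methods and the labels, the authors ran FastQC and cutadapt, aligned reads with STAR to GRCm38.p6 and counted them per gene with Rsubread, and the deposited table holds these raw counts. Tool versions and the strand setting of the counting are not given in the sources used here, so genes with exons overlapping on opposite strands are uncertain. The authors' normalised and batch-corrected tables and their fold changes and p-values for KO against WT were not used.

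All 36 libraries were fitted with DESeq2 1.42.0 (R 4.3.3) as a single factor of 12 groups, with median-ratio size factors, a Wald test, independent filtering and no shrinkage. Benjamini-Hochberg adjustment ran over all tested genes, and DEGs had FDR < 0.05 and an absolute log2FC above 1. The difference between KO and WT changes was a contrast of the same fit. The axis used log2(normalised count + 1). A gene without reads in a group was set at 3 reads over the group for a fold bound, and 95% counting intervals are exact and cover counting error only. Gene positions came from the GENCODE M21 annotation of GRCm38, which matched 21417 of 21442 genes (99.9%). The fits were tested on simulated data.

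Named genes were Zfp266 and the 4 cassette factors, the 8 leading DEGs per direction by test statistic (absolute log2FC above 2) and the 5 by fold (mean of at least 500) among those whose libraries did not overlap, the 5 leading interaction genes per direction, and from each list the members of highest and lowest log2FC and up to 4 others. The comparison, its lists and its motifs were chosen with earlier results of these data known, so lists are described by counts and medians, with no set test. Alternatives were edgeR 4.0.16, TMM size factors, a filter of 10 reads in 3 libraries, a fit of only the groups compared, a replicate block, other thresholds and leaving out each library.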

Additional observations from a re-analysis of the deposited data

Results flagged for a closer look

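Of the 190 named genes, 67 changed differently between day 7 and iPSCs in KO and WT cells by the interaction test of DESeq2 (FDR < 0.05 and an absolute log2 difference above 1). The KO change was the more positive for 28 of them and the more negative for 39. Over all 20604 tested genes 1958 (9.5%) passed, 1334 positive (6.47%) and 624 negative (3.03%), so the named genes were split the other way. The leading genes of the interaction test in each direction were named for that test and passed by selection. The share of named genes that passed is therefore not an estimate for all genes. The values below are the KO log2FC minus the WT log2FC.

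Among pluripotency genes the difference was negative throughout. It was -3.27 for Dppa4, -3.07 for Dppa5a, -2.20 for Utf1, -2.11 for Klf2, -2.04 for Nr0b1, -1.63 for Zfp42, -1.32 for Fgf4, -1.20 for Sall4 and -1.18 for Esrrb. The epiblast factors Pou3f1 and Otx2 were at -2.48 and -2.0. Signalling genes on the same side were Nodal (-2.14), Dusp6 (-2.03), Bmp4 (-1.87), the BMP target Id2 (-1.57) and Dusp5 (-1.37), whereas the receptor gene Tgfbr2 was at 1.79.

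Most chromatin genes did not pass. Among DNA methylation genes 3 of 14 passed and among PRC2 subunits 2 of 12, all negative. Of 14 KRAB corepressor and H3K9 methylation genes 1 passed, also negative. Of 16 BAF subunits 2 passed, both positive. The named chromatin genes that passed were mostly negative. Dnmt3l was at -3.87, Tet1 at -2.36, Phf19 at -1.74, Dnmt3b at -1.63, Zfp57 at -1.42 and Jarid2 at -1.40, and the ATPase gene Smarca2 was at 1.06 (0.22 without KO iPSC replicate 1). Imprinted genes differed in sign, with Zdbf2 at -2.06 and Igf2 at 3.02. The germline gene Piwil2 was at -1.10, and the 2C-like genes Zfp352 and Duxf3, both at low counts, were at 5.09 and 5.06 (Duxf3 2.62 without WT day 7 replicate 1).

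Fibroblast and contractile genes were positive, several of them resting on 1 KO iPSC library. Col1a2 was at 4.62, Acta2 at 2.79, Runx1 at 2.12, Fbln2 at 1.82, Fbn1 at 1.79, Thy1 at 1.26 and Sparc at 1.10. Without KO iPSC replicate 3 Col1a2 was at 2.68 and Acta2 at 0.87, and without replicate 1 Runx1 was at 0.12 and Sparc at 0.45. Thy1 lost its call without KO day 7 replicate 3, KO iPSC replicate 1, WT day 7 replicate 2 or WT iPSC replicate 1. So were the stress-induced Atf3 (2.41), the endoderm factor Gata6 (2.18, and -0.29 without KO iPSC replicate 1), Hoxc13 (1.36, and 0.88 without WT day 7 replicate 3) and the cell cycle inhibitor Cdkn1a (1.28). Among epithelial genes Dsp was at 1.97 and Krt8 at 1.64 (0.49 without KO iPSC replicate 3), and Grhl2 was at -1.68.

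Immune genes gave 2.54 for Csf1, 1.04 for H2-D1 and -1.16 for Ddx58, and cycle and metabolic genes gave -1.67 for Ccne1, -1.07 for Slc2a3 and 1.18 for Ldhb (0.39 without KO iPSC replicate 3). Genes named for their KO statistic or fold were negative for Trap1a (-3.31), Ina (-2.49), Apoe (-2.15), Mcf2 (-1.68, and -2.62 without WT day 7 replicate 1), Zfp987 (-1.31), Pald1 (-1.23) and Zfp980 (-1.08), and positive for Misp (1.95) and Dlgap1 (1.03, and 0.52 without KO iPSC replicate 1). Genes named for the interaction itself were Morc4 (2.05), Ttc7 (1.94), Smpd1 (1.76), Evl (1.48) and Os9 (1.00) on the positive side and Enox1 (-3.54), Aldh2 (-1.83) and Hmces (-1.29) on the negative side. Gm34425, a noncoding RNA, had 24.1, 18.4 and 30.0 normalised read counts at KO day 7 and no read in KO iPSCs, while in WT iPSCs 1 library had 218 and the others none. Its fitted difference of -23.06 is not a size that can be read, and without that library it was 0.21. Leaving out each of 12 libraries in turn, an alternative chosen after the values were seen, 21 of the 67 genes lost their call at least once. Beside those given above they were Ddx58, Dusp5, H2-D1, Os9, Piwil2, Pou3f1, Slc2a3, Zfp980 and Zfp987, whose differences moved by less than 1.5 times. Hoxc13, Gata6, Krt8, Duxf3 and Ldhb lost their calls with most of the 12 libraries, not only with the library named beside them. Sparc lost its call with several of them.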

How the results depend on the processing

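Changing the threshold moved the counts by more than 1.5 times. With the fold threshold inside the test 5129 of the 8317 DEGs were left (2377 of 4064 higher and 2752 of 4253 lower), and without a fold threshold there were 14762 (7566 and 7196). For WT cells the counts were 6400 and 15754 against 9646, and for the interaction 140 and 4715 against 1958. With the fold threshold inside the test the positive share of interaction calls was 53.6% against 68.1%. A pseudocount of 10 gave an axis shift of 36.6 against 39.6. The other alternatives, namely edgeR (8363 DEGs), TMM size factors (8322), a filter on low counts (8313) and a fit of only the groups compared (7702), stayed within 1.5 times. Leaving out each library in turn gave 8027 to 8132 DEGs, 3909 to 4003 higher and 4083 to 4215 lower, 1608 to 2038 interaction calls, 9339 to 9496 WT DEGs and shifts of 38.7 to 40.4. Replicate numbers did not pair the samples (correlation of deviations of same-numbered libraries 0.053, -0.015 and 0.036), and a replicate block gave 8272 DEGs. Over 190 named genes and 11 alternatives, 2085 of 2090 values kept their side of the thresholds and no called gene changed sign. The sign changed in 7 values of 4 genes that were not called (H19, T, Epcam and Socs3), H19 going from -0.11 to 1.01 without KO day 7 replicate 1. Batf lost its call (2.44) when only the groups compared were fitted. Without KO iPSC replicate 1 Meox1 (1.97) and Gata6 (-3.07) were called, and Cdh1 was called without replicate 2 (-1.01) or 3 (-1.05). Of 792 list counts 779 stayed within 1.5 times. The cause of these shifts was not tested. Depth limits genes at 0, since 3 reads are 2.60 to 3.03 normalised counts, and with 3 libraries a group the permutation test cannot go below 0.1.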
